A study of Mus musculus with 20 samples.

Results

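The genes described here are 43 interferon-stimulated genes, taken as a list by name from the 31053 genes of each count matrix, and all 43 were in the matrices. Their levels were read in 20 single-cell RNA-sequencing libraries from 13 mice, labelled as strain C57BL/6N although the study's methods name C57BL/6J for the cross of both transgenes: spleens from 5 Eµ-PRMT5 mice, 4 Eµ-TCL1 mice and 4 Eµ-PRMT5/TCL1 mice, and lymph nodes from 3 Eµ-TCL1 and 4 Eµ-PRMT5/TCL1 mice. Each of the 7 node libraries has a spleen library of its own mouse. Eµ-PRMT5 mice carry human PRMT5, an enzyme that methylates arginine, and Eµ-TCL1 mice carry human TCL1, an oncogene of lymphocytes, each placed behind an immunoglobulin heavy chain promoter and enhancer that are active in B cells; Eµ-PRMT5/TCL1 mice carry both. No mouse without a transgene was sequenced, ages are not in the labels, and mice were taken at the study's early removal criteria, so every library comes from a mouse judged sick. The study reports the longest median survival for Eµ-PRMT5 and the shortest for Eµ-PRMT5/TCL1 mice. Ages may therefore differ between genotypes, and age and genotype cannot be told apart here. The methods state that female and male mice were mixed, and the sex of each mouse is not given here. Eµ-PRMT5 spleen 3 has the name that the methods give to a founder animal, and whether it is from the same line as the others was not tested. The transgenes are human sequences and the counts name mouse genes, so transgene levels were not read. The study asked how these transgenes change B cells and the cells around them; the questions here are where the 43 genes are expressed, whether their levels differ between genotypes and tissues, and whether the B and T cells of a library vary together.

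Interferons are cytokines made in response to infection and inflammation. Type I interferons (Ifna, Ifnb1) act through the receptor chains Ifnar1 and Ifnar2 and the kinases Jak1 and Tyk2 on a factor that contains Stat2 and Irf9 and binds the interferon-stimulated response element in DNA. Interferon gamma, the type II interferon made by T and NK cells, acts through Ifngr1 and Ifngr2, and its signal reaches genes through the gamma-activated site in DNA. The listed genes fall into 8 groups by role. There are 5 regulators: the transcription factors Irf7, Irf9 and Stat2, the ubiquitin-like protein Isg15 and Usp18, the protease that removes Isg15 and restrains the receptor. A further 4 genes encode sensors of foreign nucleic acid (Ifih1, Ddx58, Dhx58, Zbp1). The OAS group of 5 (Oas1a, Oas2, Oas3, Oasl1, Oasl2) encodes oligoadenylate synthetases and their relatives, which sense double-stranded RNA. The IFIT group of 4 (Ifit1, Ifit2, Ifit3, Ifit3b) encodes proteins that bind foreign RNA and block its translation. Another group of 3 holds the ADP-ribosyltransferase genes Parp9 and Parp14 and the ubiquitin ligase gene Dtx3l, whose protein pairs with Parp9. The GTPase group of 7 (Igtp, Irgm1, Iigp1, Ifi47, Gbp2, Gbp3, Gbp7) acts on the vacuoles of intracellular microbes and responds strongly to interferon gamma. The PYHIN group of 3 (Ifi213, Ifi203, Ifi204) belongs to a family of DNA-binding proteins. The last 12 are other effectors: Mx1, Rsad2, Cmpk2, Samd9l, Rtp4, Slfn5, Trim30a, Xaf1, Ifi27l2a, Ifi35, Ifi44 and Phf11b.

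The response element gives the list a feature that its choice by name did not use. RefSeq promoter windows (GRCm38.p6, 250 bases before to 50 after a gene's start) were at hand for 32 of the 43 genes, and none was used for Dhx58, Ifi204, Ifi27l2a, Iigp1, Mx1, Oas2, Parp14, Parp9, Rtp4, Usp18 and Zbp1. Its core, searched on both strands as GAAA, any 2 bases and GAAA again, was in the window of 20 of these 32 genes (62.5%), against 1079 of all 27025 genes with a window (3.99%). It was found for 5 of 6 GTPase genes, 2 of 2 PYHIN genes, 2 of 2 sensor genes, 3 of 4 IFIT genes, 2 of 4 OAS genes, 2 of 4 regulators, 4 of 9 other effectors and not for Dtx3l. The gamma-activated site TTCNNNGAA, which reads the same on both strands, was in the windows of 5 genes, namely Oas1a, Ifit2, Ifi35, Igtp and Gbp7 (15.6%, against 9.55% of all genes). The windows of Oas1a, Igtp and Gbp7 held both motifs, and in none of them did the matches overlap. A match is a description of the letters, not a measured binding site. The stretches below are shown because their genes carry the results that follow, with the strand of the gene and with capitals at every match to the response element core, which reads as TTTC, any 2 bases and TTTC where it lies on the opposite strand.
Isg15, chr4:156200830-156200929, minus strand: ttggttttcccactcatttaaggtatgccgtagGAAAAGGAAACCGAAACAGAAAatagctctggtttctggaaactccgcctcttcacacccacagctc
Ifit3, chr19:34583362-34583461, plus strand: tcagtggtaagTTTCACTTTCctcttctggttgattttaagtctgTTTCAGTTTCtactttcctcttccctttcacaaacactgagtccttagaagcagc
Stat2, chr10:128270248-128270330, plus strand: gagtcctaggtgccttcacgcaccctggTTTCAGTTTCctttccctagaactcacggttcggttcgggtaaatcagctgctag
Gbp2, chr3:142620594-142620623, plus strand: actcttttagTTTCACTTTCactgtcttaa
Gbp3, chr3:142559960-142560025, plus strand: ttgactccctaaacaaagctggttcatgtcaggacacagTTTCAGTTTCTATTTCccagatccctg
Igtp, chr11:58199477-58199555, plus strand: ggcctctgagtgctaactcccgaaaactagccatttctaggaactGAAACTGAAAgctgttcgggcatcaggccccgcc
Ifi213, chr1:173599291-173599390, minus strand: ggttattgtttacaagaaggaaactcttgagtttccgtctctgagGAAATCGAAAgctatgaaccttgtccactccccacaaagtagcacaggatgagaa

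Isg15, with 3 overlapping matches in a row, and Ifit3, with 2, are classical targets of type I interferon. Gbp2, Gbp3 and Igtp are GTPase genes for which every Eµ-PRMT5/TCL1 spleen lay above every Eµ-PRMT5 spleen in B-like cells. Ifi213 has the largest fold difference of the list, and its stretch holds 1 match. Of Gbp2, 30 bases around the match are shown.

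Cells were called and clustered anew, leaving 84231 cells (688 to 7631 per library, with medians of 3553 to 14285 unique molecular identifiers, UMIs, per cell). None of the 43 genes was among those used for clustering. By markers, 17 of 36 clusters were B-like (39408 cells), 9 T-like (32854), 2 monocyte/macrophage-like (3787) and 1 neutrophil-like (2916). The remaining cells were NK-like and plasma-like (closing section), erythroid-like (169 cells, not described further) or unnamed. The larger monocyte/macrophage-like cluster (2175 cells, 42.3% from Eµ-PRMT5 spleen 4) had Prtn3, Mpo, Elane and Ctsg among its top genes. Its other top genes were Saa3, Ifitm1, Tgfbi, F13a1, Nupr1 and the macrophage marker C1qb. That class may thus hold myeloid precursors beside monocytes and macrophages, and these were not split. When the 43 genes were allowed in clustering, Mpo, Elane, Ctsg and Prtn3 led a cluster of 1023 cells. Its largest source was Eµ-PRMT5/TCL1 spleen 2 (22.5%). Eµ-PRMT5 spleen 4 was then the largest source (29%) of the other such cluster (2785 cells), with Saa3, Tgfbi, Lyz2 and Csf1r among its top genes. B-like cells were not split into leukaemic and other B cells. Cluster 27 drew 99.8% of its cells from Eµ-PRMT5 spleen 4, cluster 28 91.6% from Eµ-TCL1 spleen 4 and cluster 30 79.1% from Eµ-PRMT5/TCL1 spleen 1. Cluster 0, with Fcer2a and Ighd among its top genes, drew 48.6% from Eµ-PRMT5 spleen 3. The groups can thus differ in their kinds of B cell, and the part of this in the differences below was not tested. Of the B-like marker list, all 8 genes had UMIs in every group, but their summed level was 1108 CPM (UMIs per 1000000 UMIs of the sum) in Eµ-PRMT5 spleen 4, where the median Eµ-PRMT5 spleen had 4635, so counts for Eµ-PRMT5 B-like cells are also given without that library. UMIs were summed over the cells of a class in a library, and a level is CPM of that sum. Libraries shared at most 1.308% of the barcodes of the smaller library.

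Most of the list was detected in every class. A UMI marks the 3′ end of a molecule, so CPM values need no division by gene length, although genes can still differ in how well their ends are captured. Of the 43 genes, 35 had a UMI in every library's B-like cells, 33 in T-like, 34 in monocyte/macrophage-like (17 libraries with at least 30 such cells) and 24 in neutrophil-like cells (13 libraries). Ifi44, an antiviral effector, had fewer than 30 UMIs in all in B-like and in T-like cells, and Mx1, Ifi44 and Ifi213 had fewer than 30 in neutrophil-like cells. The 43 genes together took 305745 UMIs in B-like, 263527 in T-like, 147545 in monocyte/macrophage-like and 37082 in neutrophil-like cells.

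**Figure D1:**
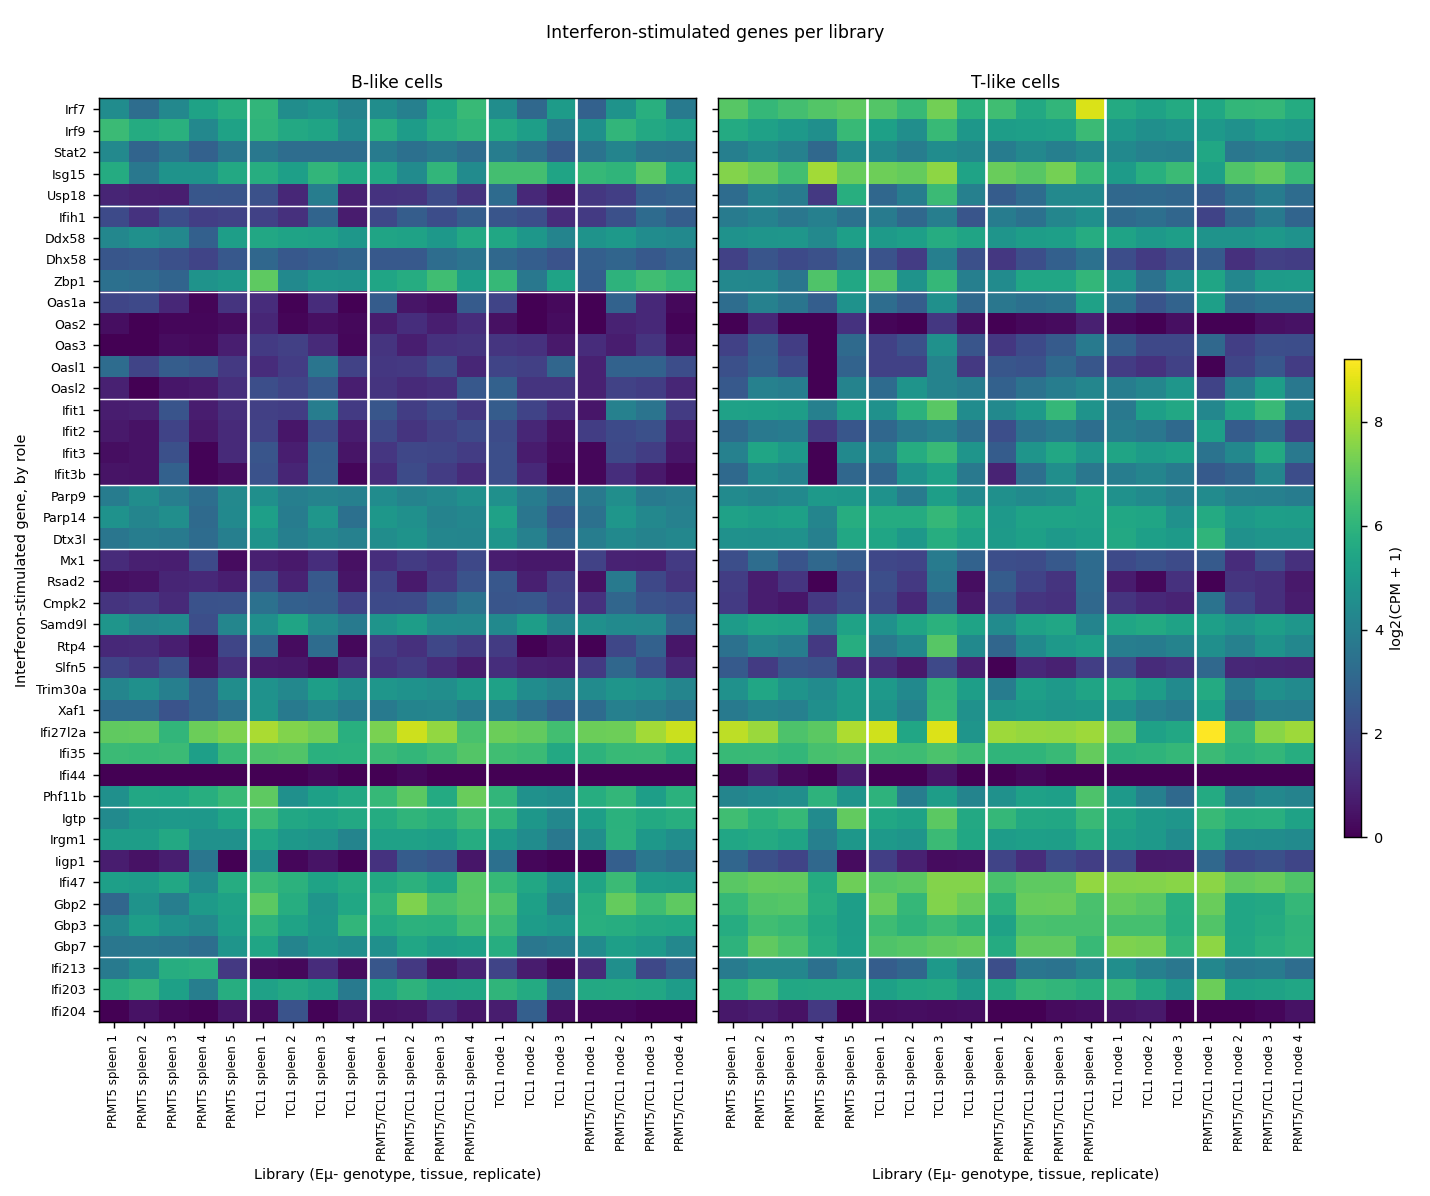
Levels of the 43 genes (rows, ordered by role) in the B-like (left) and T-like (right) cells of the 20 libraries (columns, ordered by group), as log2(CPM + 1), with white lines between groups and between roles. Ifi27l2a is the brightest row in most B-like columns, and in most libraries the IFIT rows are darker in B-like than in T-like cells.

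The highest median of the list in every class was that of Ifi27l2a, a small mitochondrial protein gene strongly induced by type I interferon. In B-like cells it stood at 123, 128, 65.6, 140 and 170 CPM in Eµ-PRMT5 spleens 1 to 5, at 262, 177, 148 and 55.9 in Eµ-TCL1 spleens 1 to 4, and at 162, 367, 211 and 92.8 in Eµ-PRMT5/TCL1 spleens 1 to 4. In the nodes it was at 142, 128 and 85.1 CPM in Eµ-TCL1 lymph nodes 1 to 3 and at 141, 143, 241 and 357 in Eµ-PRMT5/TCL1 lymph nodes 1 to 4. The 3 spleen groups overlapped, and every Eµ-PRMT5/TCL1 node but the first lay above the highest Eµ-TCL1 node. In T-like cells of spleens its levels were 315, 224, 98.8, 118 and 270 CPM for Eµ-PRMT5, 373, 43, 425 and 27.1 CPM for Eµ-TCL1 and 233, 214, 208 and 234 CPM for Eµ-PRMT5/TCL1 mice. Its T-like levels were 133, 37.2 and 44.5 CPM in the Eµ-TCL1 nodes and 593, 72.8, 188 and 232 in the Eµ-PRMT5/TCL1 nodes. The Eµ-TCL1 spleens were split, with spleens 1 and 3 above every other spleen and spleens 2 and 4 below every other spleen. Monocyte/macrophage-like cells of spleens had 354, 689, 169, 447 and 477 CPM for Eµ-PRMT5, 867, 488, 346 and 153 CPM for Eµ-TCL1 and 796, 512, 688 and 494 CPM for Eµ-PRMT5/TCL1 mice. Those of nodes had 409 CPM for Eµ-TCL1 lymph node 3 and 379, 2363 and 865 CPM for Eµ-PRMT5/TCL1 lymph nodes 2 to 4, the second of these being the highest value of any gene of the list.

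The next members by median in B-like cells were Ifi35, a leucine zipper protein gene, and Gbp2, in T-like cells Ifi47 and Isg15, in monocyte/macrophage-like cells Gbp2 and Ifi47, and in neutrophil-like cells Samd9l and Rtp4. Ifi35 in B-like cells was at 77.1, 73.2, 76.7, 36 and 74 CPM in the spleens of Eµ-PRMT5, at 97.7, 104, 57.3 and 57.6 in those of Eµ-TCL1 and at 77.1, 67.2, 81 and 107 in those of Eµ-PRMT5/TCL1 mice, and at 83.4, 76 and 46.6 in the nodes of Eµ-TCL1 and 61.7, 72.6, 74 and 54.8 in those of Eµ-PRMT5/TCL1 mice. Eµ-PRMT5 spleen 4 alone lay far below its group. Ifi47 in T-like cells was at 116, 129, 126, 49.6 and 145 CPM in the spleens of Eµ-PRMT5, at 110, 119, 179 and 179 in those of Eµ-TCL1 and at 94.3, 122, 121 and 212 in those of Eµ-PRMT5/TCL1 mice, and at 174, 180 and 192 in the nodes of Eµ-TCL1 and 193, 127, 137 and 102 in those of Eµ-PRMT5/TCL1 mice. All groups overlapped with at least 1 other, and the Eµ-TCL1 nodes were the tightest. In monocyte/macrophage-like cells Gbp2 was at 85.6, 50.2, 48.4, 784 and 99 CPM in the spleens of Eµ-PRMT5, at 720, 245, 95.7 and 12.7 in those of Eµ-TCL1 and at 136, 487, 402 and 385 in those of Eµ-PRMT5/TCL1 mice, at 28.8 in Eµ-TCL1 lymph node 3 and at 199, 204 and 511 in lymph nodes 2 to 4 of Eµ-PRMT5/TCL1 mice. Ifi47 in the same cells was at 63.1, 53.2, 62.4, 243 and 62.3, then 243.6, 109, 70.4 and 20.8, then 114, 100, 145 and 351 in the spleens in that order, 19.2 in the Eµ-TCL1 node and 199, 104 and 144 in the Eµ-PRMT5/TCL1 nodes. Eµ-PRMT5 spleen 4 was far above the other 4 spleens of its group for both GTPase genes.

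Neutrophil-like cells could be read in 11 spleens (not in Eµ-PRMT5 spleen 5 or Eµ-TCL1 spleen 2) and 2 nodes. Ifi27l2a there was at 81.7, 40.4, 27.9 and 63.6 CPM in Eµ-PRMT5 spleens 1 to 4, at 231, 70 and 18.8 in Eµ-TCL1 spleens 1, 3 and 4, at 118, 148, 258 and 147 in Eµ-PRMT5/TCL1 spleens 1 to 4, at 80.9 in Eµ-TCL1 lymph node 3 and at 893 in Eµ-PRMT5/TCL1 lymph node 3. Samd9l, a restriction factor gene, was at 67.2, 128, 58.4 and 60, at 101, 63.7 and 66.9, at 72.5, 99.2, 107 and 65.5, at 60.2 and at 165 CPM in the same libraries. Rtp4, an induced chaperone gene, was at 18.3, 26.2, 12.6 and 196, at 146, 44.7 and 1.05, at 7.63, 77.1, 119 and 178, at 58.1 and at 282 CPM. The Eµ-PRMT5/TCL1 node had the highest value for all 3 genes, and Rtp4 ranged within each spleen group over more than 10-fold. The lowest Rtp4 values of the Eµ-TCL1 and Eµ-PRMT5/TCL1 spleens rest on very few UMIs. They were 1.05 CPM in Eµ-TCL1 spleen 4 (956844 UMIs over all genes) and 7.63 CPM in Eµ-PRMT5/TCL1 spleen 1 (262047 UMIs, 35 cells).

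Across classes the monocyte/macrophage-like cells held the most of the list and the B-like cells the least of the 2 lymphoid classes. Summed over the 43 genes, the median library was at 925 CPM in B-like cells (range 511 to 1532), 1474 in T-like (1048 to 2886), 2241 in monocyte/macrophage-like (812 to 4696) and 861 in neutrophil-like cells (323 to 2890). The T-like sum exceeded the B-like sum in 19 of 20 libraries, but not for all genes: by the median of the paired differences 31 genes were higher in T-like cells and 11 lower, and 10 were higher in T-like cells of every library. The IFIT genes were among those most above B-like levels, with Ifit3 at a median of 27.1 CPM in T-like and 1.47 in B-like cells and Ifit1 at 34.8 and 2.17, although Ifit3 and Ifit3b are near-identical copies whose separate counts are uncertain. Irf7, which drives further interferon production, had medians of 69.2 and 22 CPM and was higher in the T-like cells of 20 of 20 libraries. Gbp7 had medians of 98.8 and 22.7 CPM. The reverse held for Phf11b, a PHD finger protein gene, with 23.3 CPM in T-like and 50.1 in B-like cells, higher in the T-like cells of only 1 of 20 libraries. Monocyte/macrophage-like cells were above B-like cells for 39 of 43 genes and above T-like cells for 28, with Ifi204, Iigp1 and Irgm1 at medians of 101, 41.4 and 77.9 CPM. Ddx58, which encodes the RNA sensor RIG-I, went the other way, with medians of 9.59 CPM in monocyte/macrophage-like and 28.8 in B-like cells.

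**Figure D2:**
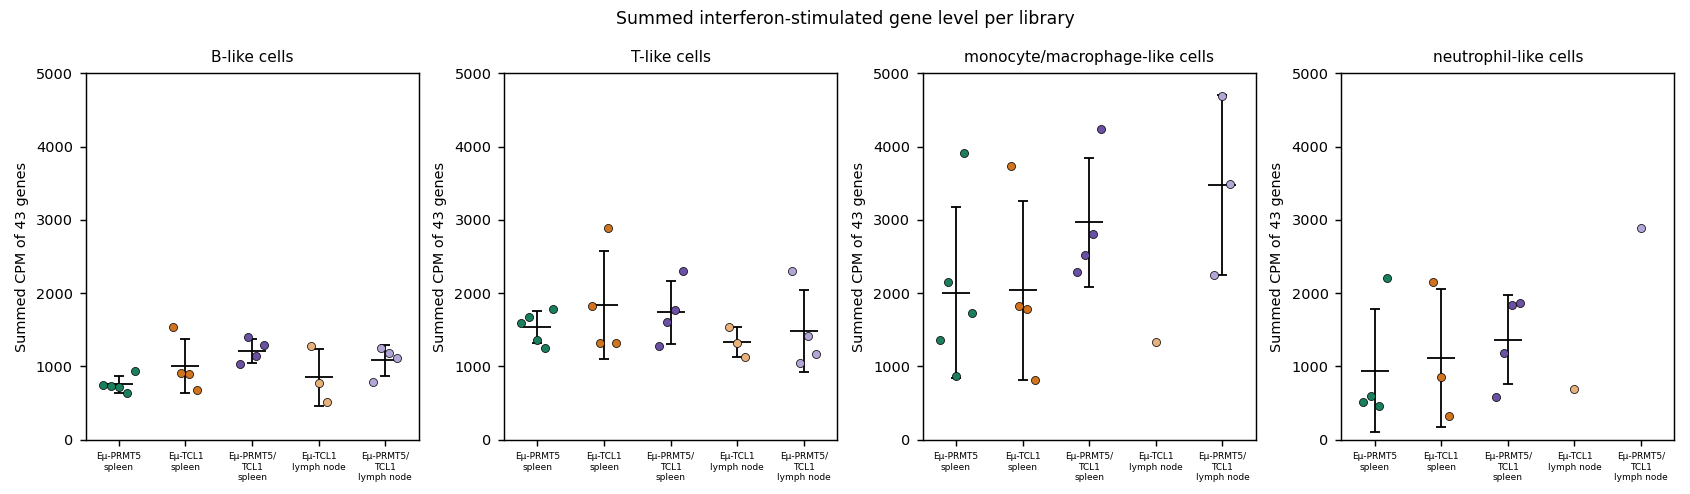
Summed CPM of the 43 genes in each library (points) by group, in 4 panels for the 4 cell classes, with bars at the mean ± SD where a group has more than 1 library. B-like sums lie between 511 and 1532 CPM, with Eµ-PRMT5 spleens at 755 ± 112 (n = 5) and Eµ-PRMT5/TCL1 spleens at 1217 ± 164 (n = 4), and all panels share a y axis from 0.

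Cell by cell, the monocyte/macrophage-like class again held the most. After each cell was thinned to 1000 UMIs, 9.7% of B-like, 21.1% of T-like, 39.5% of monocyte/macrophage-like and 20.6% of neutrophil-like cells had at least 3 UMIs of the list (means over libraries), against 82.4%, 84.5%, 94.7% and 74.6% before thinning, where depth sets most of the share. In the B-like cells of spleens the thinned share was 5.72% ± 1.40 (SD, n = 5) in Eµ-PRMT5, 10.6% ± 7.21 (n = 4) in Eµ-TCL1 and 14.6% ± 4.13 (n = 4) in Eµ-PRMT5/TCL1 mice. In nodes it was 7.50% ± 6.00 (n = 3) and 10.5% ± 4.19 (n = 4). Every Eµ-PRMT5/TCL1 spleen (9.69% to 18.9%) lay above every Eµ-PRMT5 spleen (3.51% to 7.30%), and the Eµ-TCL1 spleens (3.72% to 20.6%) overlapped with both. Free RNA in the droplets, estimated from barcodes with 10 to 100 UMIs, would account for 0.427% to 19.1% of the B-like UMIs of the list, above 5% in 3 libraries, and for 0.174% to 7.54% of the T-like UMIs. Those 3 libraries were nodes: Eµ-TCL1 lymph node 1 (13.9%) and Eµ-PRMT5/TCL1 lymph nodes 1 (8.68%) and 4 (19.1%). The spleens of the same mice were at 0.948%, 0.89% and 1.28%. The highest T-like share was also in Eµ-TCL1 lymph node 1. The share of free RNA was higher in the myeloid classes, at 0.419% to 12.8% in monocyte/macrophage-like (above 5% in 11 of 17 libraries) and 1.85% to 27.7% in neutrophil-like cells (above 5% in 8 of 13).

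In the B-like cells of spleens no gene of the list passed the test between Eµ-PRMT5 and Eµ-TCL1 mice, yet most stood lower in Eµ-PRMT5 mice. The sum over the list was at 746, 736, 715, 636 and 940 CPM in Eµ-PRMT5 spleens 1 to 5, at 1532, 911, 903 and 672 in Eµ-TCL1 spleens 1 to 4 and at 1029, 1405, 1148 and 1287 in Eµ-PRMT5/TCL1 spleens 1 to 4. Eµ-TCL1 spleens reached from within the Eµ-PRMT5 range to the top of all libraries, and the Eµ-PRMT5/TCL1 spleens lay above every Eµ-PRMT5 spleen. Of 41 genes with enough UMIs to be tested, 32 had a lower and 9 a higher fitted level in Eµ-PRMT5 spleens, and the median log2 difference was -0.71, against 0.013 over all 12001 genes tested. By edgeR's quasi-likelihood test with Benjamini-Hochberg adjustment over all genes 0 of the 41 were called at an adjusted p of 0.05, where 0.00833% of all genes were. At an unadjusted p under 0.05 there were 18 of 41 against 17.9% of all genes: 16 lower, against 8.34% of all genes, and 2 higher, against 9.61%. DESeq2, a second count test, called 5 (Ifi213, Xaf1, Gbp3, Oasl2 and Ddx58), against 6.21% of all genes. The 2 groups did not overlap for 3 genes, Ifi213, Xaf1 and Dtx3l, against 4.83% of all genes tested. The 16 lower genes were 5 of 7 GTPase genes, 3 of 4 sensor genes, 2 of 5 OAS genes, 4 of 11 tested other effectors, 1 of 4 IFIT genes and Dtx3l of its group of 3, and none of the 5 regulators was among them.

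Among the GTPase genes, in B-like cells, Gbp2 was at 7.29, 25.5, 14.5, 31.2 and 39 CPM in Eµ-PRMT5 spleens 1 to 5, at 119, 53, 27.1 and 44.4 in Eµ-TCL1 spleens 1 to 4 and at 64, 172, 91.6 and 113 in Eµ-PRMT5/TCL1 spleens 1 to 4. Every Eµ-PRMT5/TCL1 spleen lay above every Eµ-PRMT5 spleen, and the Eµ-TCL1 spleens overlapped with both groups. The log2 difference of Eµ-PRMT5 from Eµ-TCL1 was -1.39 ± 0.54 (SE, edgeR adjusted p = 0.205). Gbp3, chosen with the other genes of this and the next 2 paragraphs after its values were seen, was at 18.4, 34.7, 25.1, 19.4 and 35.7 CPM, at 61.8, 39.2, 28.6 and 66.6, and at 49.2, 59.1, 56.2 and 84.6 in the 3 groups of spleens in the same order. Only Eµ-TCL1 spleen 3 fell within the Eµ-PRMT5 range, and the log2 difference was -0.98 ± 0.27 (edgeR adjusted p = 0.129, DESeq2 adjusted p = 0.0241). Igtp was at 20, 28.2, 30, 29.4 and 41.5 CPM in Eµ-PRMT5, at 77.2, 44.5, 39.2 and 46.8 in Eµ-TCL1 and at 49.3, 64.6, 53.8 and 78.1 in Eµ-PRMT5/TCL1 spleens. Here too a lone Eµ-TCL1 spleen, spleen 3, lay below the highest Eµ-PRMT5 value, with a log2 difference of -0.86 ± 0.27 (edgeR adjusted p = 0.149). Gbp7 and Ifi47 differed by -1.0 ± 0.36 and -0.69 ± 0.26 on the log2 scale (edgeR adjusted p = 0.181 and 0.199), while Irgm1 and Iigp1 did not reach an unadjusted p of 0.05.

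Xaf1, which encodes a pro-apoptotic partner of XIAP, was at 8.24, 8.39, 4.13, 6.51 and 9.98 CPM in Eµ-PRMT5 spleens, at 25.4, 12.8, 17.8 and 12.6 in Eµ-TCL1 spleens and at 13, 16.9, 17.6 and 13.4 in Eµ-PRMT5/TCL1 spleens. All Eµ-PRMT5 values lay below all others, and the log2 difference of Eµ-PRMT5 from Eµ-TCL1 was -1.28 ± 0.32 (edgeR adjusted p = 0.112, DESeq2 adjusted p = 0.0126). Ddx58 was at 18.4, 23.6, 18.7, 6.07 and 34.8 CPM in Eµ-PRMT5, at 44.9, 39.8, 38.1 and 28.3 in Eµ-TCL1 and at 40.8, 38.5, 29.3 and 46.4 in Eµ-PRMT5/TCL1 spleens. Eµ-PRMT5 spleen 5 was the sole library of its group within the range of the others, and the log2 difference was -1.04 ± 0.32 (edgeR adjusted p = 0.149). Zbp1, the sensor of left-handed nucleic acid, was at 9.59, 8.77, 6.89, 25.9 and 29.2 CPM in Eµ-PRMT5, at 122, 19.6, 26.9 and 25.7 in Eµ-TCL1 and at 41.7, 50.6, 82.2 and 35.1 in Eµ-PRMT5/TCL1 spleens, with Eµ-TCL1 spleen 1 far above the rest and the first 2 groups overlapping (log2 difference -1.56 ± 0.66, edgeR adjusted p = 0.235). The OAS genes Oasl2 and Oas3 had differences of -2.18 ± 0.69 and -2.68 ± 0.90 at levels under 5 CPM in all these spleens (edgeR adjusted p = 0.149 and 0.165).

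Ifi213 went against most of the list. In B-like cells it was at 12.7, 21, 52.9, 56.9 and 1.86 CPM in Eµ-PRMT5 spleens, from 94, 55, 461, 2830 and 8 UMIs, at 0.246, 0.15, 1.23 and 0.224 CPM in Eµ-TCL1 spleens, from 3, 5, 24 and 8 UMIs, and at 4.58, 1.89, 0.39 and 0.887 CPM in Eµ-PRMT5/TCL1 spleens. Every Eµ-PRMT5 spleen was above every Eµ-TCL1 spleen, although spleen 5 of the first group, at 1.86 CPM, was nearer to the Eµ-TCL1 spleens than to its own group. The log2 difference was 5.99 ± 1.17, the largest of the list in size, with an edgeR adjusted p of 0.0937 and a DESeq2 adjusted p of 1.59e-07. Over 23 other settings the difference lay between 4.73 and 7.14 on the log2 scale, and the edgeR adjusted p fell below 0.05 when Eµ-PRMT5 spleen 4 or 5 was left out. In T-like cells the same gene was at 13.2, 17.8, 17.9, 9.55 and 16.6 CPM in Eµ-PRMT5 spleens and at 5.52, 7.21, 30.2 and 15.7 in Eµ-TCL1 spleens, with overlapping ranges. Its PYHIN neighbour in the list, Ifi203, showed no such split in B-like cells, at 54, 66.3, 37, 14.5 and 52.9 CPM in Eµ-PRMT5 and 37.6, 46, 36.5 and 12.5 in Eµ-TCL1 spleens. Both genes belong to a cluster of similar genes, so their separate counts are uncertain. Slfn5, a Schlafen family gene, was the other gene with a higher level in Eµ-PRMT5 spleens at an unadjusted p under 0.05 (log2 difference 1.53 ± 0.65, edgeR adjusted p = 0.239).

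None of the regulators reached an unadjusted p of 0.05 in this comparison. In B-like cells Irf7 was at 21.3, 8.77, 18.9, 38.7 and 54.1 CPM in Eµ-PRMT5, at 66.6, 22, 26 and 16.5 in Eµ-TCL1 and at 21.8, 15.1, 44.2 and 72.3 in Eµ-PRMT5/TCL1 spleens and the 3 ranges overlapped almost wholly. Stat2 was at 19.4, 6.86, 10.9, 6.27 and 11.4 CPM, at 12, 8.8, 8.91 and 8.76, and at 13.2, 9.6, 11.9 and 8.77 in the same order. Isg15 was at 50.2, 11.8, 25.6, 25.7 and 46.6 CPM in Eµ-PRMT5, at 52.7, 35.4, 66.3 and 44.6 in Eµ-TCL1 and at 45.1, 20.7, 65.5 and 20.9 in Eµ-PRMT5/TCL1 spleens. All 3 genes overlapped widely between groups, with log2 differences of Eµ-PRMT5 from Eµ-TCL1 of -0.20 ± 0.59 for Irf7, 0.08 ± 0.31 for Stat2 and -0.71 ± 0.47 for Isg15. Ifit3 was low, at 0.27, 0.381, 3.79, 0.0603 and 1.16 CPM, at 4.42, 0.691, 5.68 and 0.42, and at 1.77, 2.91, 2.77 and 2.09. The Eµ-PRMT5/TCL1 values were the closest together and lay within the ranges of both other groups.

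**Figure D3:**
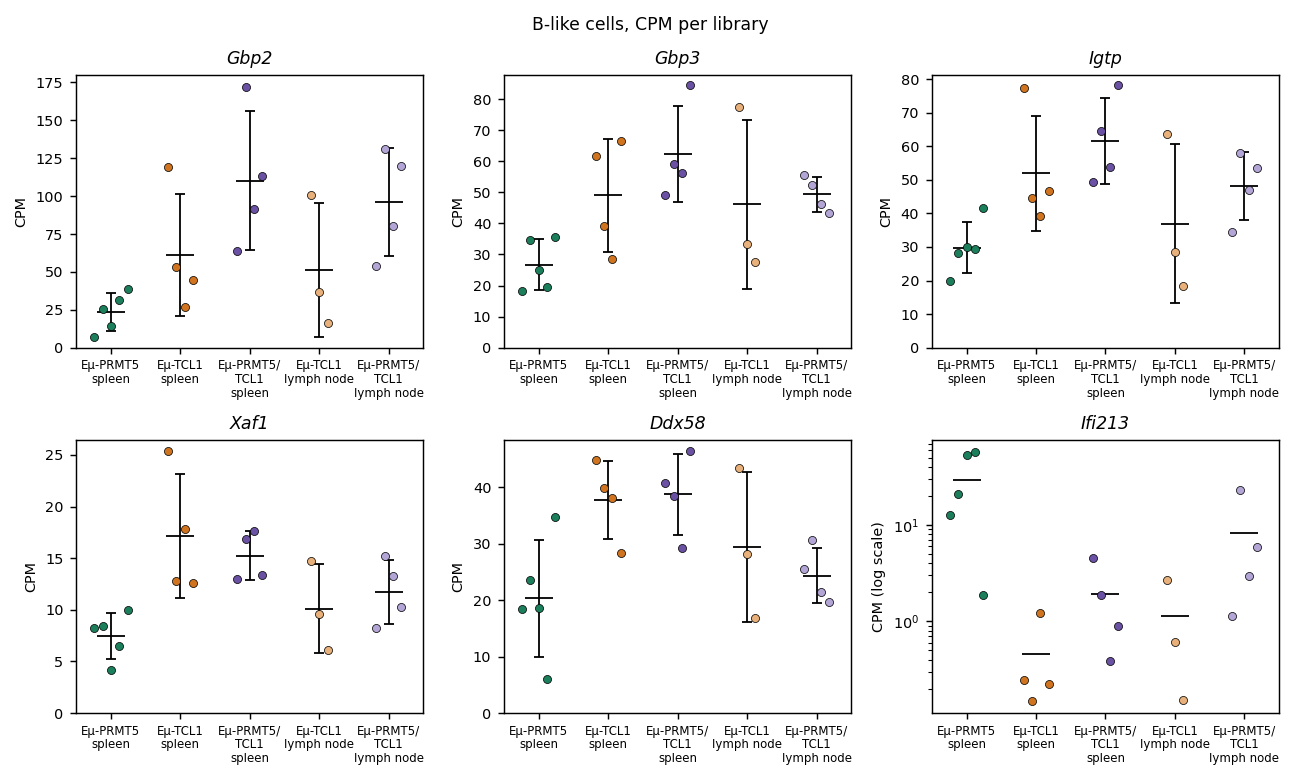
CPM of 6 genes in the B-like cells of each library (points) by group, with bars at the mean ± SD on linear axes from 0, and for Ifi213 on a log axis with the mean only. For Gbp2, Gbp3, Igtp and Xaf1 the Eµ-PRMT5/TCL1 spleens all lie above the Eµ-PRMT5 spleens, and for Ifi213 every Eµ-PRMT5 spleen lies above every Eµ-TCL1 spleen.

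Eµ-PRMT5/TCL1 spleens were next set against Eµ-PRMT5 spleens, a comparison that uses the same Eµ-PRMT5 libraries as the one above. The B-like levels of the list stood higher in Eµ-PRMT5/TCL1 mice. Of the 41 genes tested, 36 had a higher and 5 a lower fitted level. The median log2 difference was 0.76, against -0.043 over all genes, and 0 of 41 genes were called by edgeR, as were 0% of all genes. At an unadjusted p under 0.05 there were 15 of 41 against 9.67% of all genes, 14 of them higher (4.4% of all genes) and 1 lower (5.27%). DESeq2 called 3, Gbp3, Gbp2 and Ifi213, against 1.21% of all genes. The groups did not overlap for 8 genes, against 2.03% of all genes, and in all 8 the Eµ-PRMT5/TCL1 spleens were higher, against 1.56% of all genes: the GTPase genes Gbp2, Gbp3 and Igtp, and Dtx3l, Oas2, Oas3, Xaf1 and Zbp1. Gbp3 had a mean of 62.3 ± 15.4 CPM (SD, n = 4) against 26.7 ± 8.22 (n = 5), a log2 difference of 1.21 ± 0.27 (SE, edgeR adjusted p = 0.37, DESeq2 adjusted p = 0.0115). Gbp2 had means of 110 ± 46 and 23.5 ± 12.7 CPM, a log2 difference of 2.16 ± 0.55 (edgeR adjusted p = 0.37, DESeq2 adjusted p = 0.0174). Ifi213 was among the 5 lower genes, with means of 1.94 ± 1.87 and 29.1 ± 24.6 CPM and a difference of -3.97 ± 1.04 (edgeR adjusted p = 0.37, DESeq2 adjusted p = 0.00277).

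The shift was not seen when Eµ-PRMT5/TCL1 were set against Eµ-TCL1 spleens, which differ by the PRMT5 transgene. Age may differ between the groups of all these comparisons and cannot be told apart from genotype. The median log2 difference was 0.07, against -0.0015 over all genes, and 23 of 41 genes had a higher fitted level in Eµ-PRMT5/TCL1 mice. No gene was called by edgeR (0% of all genes) or by DESeq2 (0.242%), and 0 of 41 had an unadjusted p under 0.05, against 4.66% of all genes. The lowest adjusted p of the list was 0.997. The groups did not overlap for 1 gene, the dynamin-like antiviral GTPase gene Mx1, against 3.07% of all genes, with means of 1.96 and 0.723 CPM. Leaving out Eµ-TCL1 spleen 1, which had the highest B-like sum of all libraries (1532 CPM), moved the median to 0.27 (-0.07 without Eµ-TCL1 spleen 4) and the count at an unadjusted p under 0.05 to 5, all higher in Eµ-PRMT5/TCL1 spleens. The same library bears on the first comparison: without it 8 genes, not 16, were lower in Eµ-PRMT5 than in Eµ-TCL1 spleens at an unadjusted p under 0.05, with a median of -0.53. For the fit without that library the share of all genes is not given here, so neither count has a background.

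Markers of other cells were also present in the B-like sums. The summed level of 11 monocyte and macrophage markers, all with UMIs, ran from 30.7 to 243.6 CPM in Eµ-PRMT5, 146 to 451 in Eµ-TCL1 and 150 to 530 in Eµ-PRMT5/TCL1 spleens, and 3 of the 5 Eµ-PRMT5 spleens lay below every other spleen, the direction that most of the list had. The summed level of the plasma cell markers ran from 454 to 2466, 1152 to 3899 and 954.9 to 1484. The part of these markers in the B-like differences was not tested. Subtracting the estimated free RNA left the count of lower genes in Eµ-PRMT5 spleens within 14 to 17 (all other edgeR settings), and leaving out Eµ-PRMT5 spleen 4 or any other library but Eµ-TCL1 spleen 1 left it at 12 to 17 (14 without Eµ-PRMT5 spleen 4). For Eµ-PRMT5/TCL1 against Eµ-PRMT5 the counts without Eµ-PRMT5 spleen 4 were 16 higher and 1 lower. Shares of all genes in the fits without a library are not given here.

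In lymph nodes the B-like cells were compared between Eµ-PRMT5/TCL1 and Eµ-TCL1 mice. Of 37 genes tested, 32 had higher fitted levels in Eµ-PRMT5/TCL1 nodes, with a median log2 difference of 0.35, against 0.01 over all genes, and edgeR and DESeq2 called none (0% and 0.575% of all 10966 genes). At an unadjusted p under 0.05 there were 3, against 6.47% of all genes, all of them higher, against 2.86%: Slfn5 (2.06 ± 0.72, edgeR adjusted p = 0.728), Ifi213 (3.43 ± 1.26, adjusted p = 0.736) and Ifi27l2a (1.06 ± 0.41, adjusted p = 0.742). Gbp2 was at 101, 36.6 and 16.3 CPM in Eµ-TCL1 nodes and at 54, 131, 80.5 and 120 in Eµ-PRMT5/TCL1 nodes. Isg15 was at 86.8, 87.7 and 40.7 CPM and at 71.7, 64, 114 and 43.6, and Irf7 at 22, 7.61 and 31.9 and at 6.18, 25.4, 55.6 and 12.4. All 3 genes overlapped between the genotypes, Gbp2 because of Eµ-TCL1 node 1 alone. Stat2 was at 14, 9.33 and 5.13 CPM and at 10.3, 16.7, 10.8 and 10.1, and Ifit3 at 3.67, 0.614 and 0.216 and at 0.114, 2.97, 2.17 and 0.486. None of the tested genes had groups that did not overlap, against 5.71% of all genes. With log2 CPM of Xist, read as a marker of the sex of the mouse, as a covariate the median was -0.05. The direction of the median thus depends on whether Xist is taken into account. Leaving out Eµ-TCL1 node 1 raised the median to 0.98 and the count at an unadjusted p under 0.05 to 11, leaving out Eµ-PRMT5/TCL1 node 1 gave 6, Eµ-PRMT5/TCL1 node 2 gave 1, and leaving out Eµ-TCL1 node 2 or 3 gave 0, so that the count depends on single libraries. These counts stand without the share of all genes in the same fits, which is not given here.

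B-like cells of node and spleen were then compared within mice. Summed over the list, the node was lower than the spleen of the same mouse in 5 of 7 mice, from 1532 to 1277, 911 to 774 and 672 to 511 CPM in the Eµ-TCL1 mice of spleens 1, 2 and 4, and from 1405 to 1116 and 1287 to 783 in the Eµ-PRMT5/TCL1 mice of spleens 2 and 4. It was higher in the Eµ-PRMT5/TCL1 mice of spleens 1 and 3, from 1029 to 1254 and from 1148 to 1179 CPM. With the mouse as a block, 0 of 42 genes were called by edgeR, against 0.00828% of all 12075 genes, and the median log2 difference was -0.28, against 0.019. At an unadjusted p under 0.05 there were 12, against 12.1% of all genes, 9 lower in the node (5.7%) and 3 higher (6.39%), and DESeq2 called 5 (Ddx58, Ifi213, Isg15, Phf11b and Oasl1), against 2.81%. Leaving out 1 mouse at a time gave 5 to 14 lower and 3 to 5 higher genes by edgeR at an unadjusted p under 0.05. The share of all genes in those fits is not given here. The direction was shared by all 7 mice for 2 genes, Ddx58 and Ifi35, both lower in the node, against 2.6% of all genes.

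Ddx58 fell short of the threshold by the least of the list. In the Eµ-TCL1 mice it was at 44.9, 39.8 and 28.3 CPM in the spleen and at 43.4, 28.1 and 16.8 in the node, and in the Eµ-PRMT5/TCL1 mice of spleens 1 to 4 at 40.8, 38.5, 29.3 and 46.4 in the spleen and at 30.6, 19.7, 21.4 and 25.6 in the node. The node was lower in 7 of 7 mice, by little in the first, with a log2 difference of -0.54 ± 0.10 (edgeR adjusted p = 0.0934, DESeq2 adjusted p = 0.000354). Phf11b was at 120, 23.9 and 46.4 CPM in the Eµ-TCL1 spleens and 66.1, 24.3 and 21.7 in their nodes, and at 71.5, 118, 48.1 and 138 in the Eµ-PRMT5/TCL1 spleens and 67.7, 58.7, 35.2 and 52.1 in their nodes. It was lower in the node of 6 of 7 mice (-0.67 ± 0.16, edgeR adjusted p = 0.15, DESeq2 adjusted p = 0.0171). Isg15 went the other way, at 52.7, 35.4 and 44.6 CPM in the Eµ-TCL1 spleens and 86.8, 87.7 and 40.7 in their nodes, and at 45.1, 20.7, 65.5 and 20.9 in the Eµ-PRMT5/TCL1 spleens and 64, 43.6, 114 and 71.7 in their nodes. It was higher in the node of 6 of 7 mice (0.88 ± 0.22, edgeR adjusted p = 0.147, DESeq2 adjusted p = 0.00681). Ifi213 was also higher in the node of 6 of 7 mice (1.79 ± 0.40, edgeR adjusted p = 0.122), as was Oasl1 (0.98 ± 0.28, adjusted p = 0.213). Free RNA shares above 5% in B-like cells were found in nodes only, as given above. Over 16 other settings, free RNA subtraction among them, the log2 difference lay between -0.59 and -0.51 for Ddx58. It lay between 0.7 and 1.04 for Isg15 and between 1.56 and 2.11 for Ifi213. The difference between tissues was not shown to depend on genotype: the interaction test called 0 genes of the list in B-like or T-like cells by edgeR (0% of all genes), with adjusted p of 1 throughout. Its unadjusted p was under 0.05 for 2 of 42 genes in B-like cells, Ifi204 and Iigp1, against 2.61% of all genes. In T-like cells it was so for 1 of 40, Parp14, against 2.22%.

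**Figure D4:**
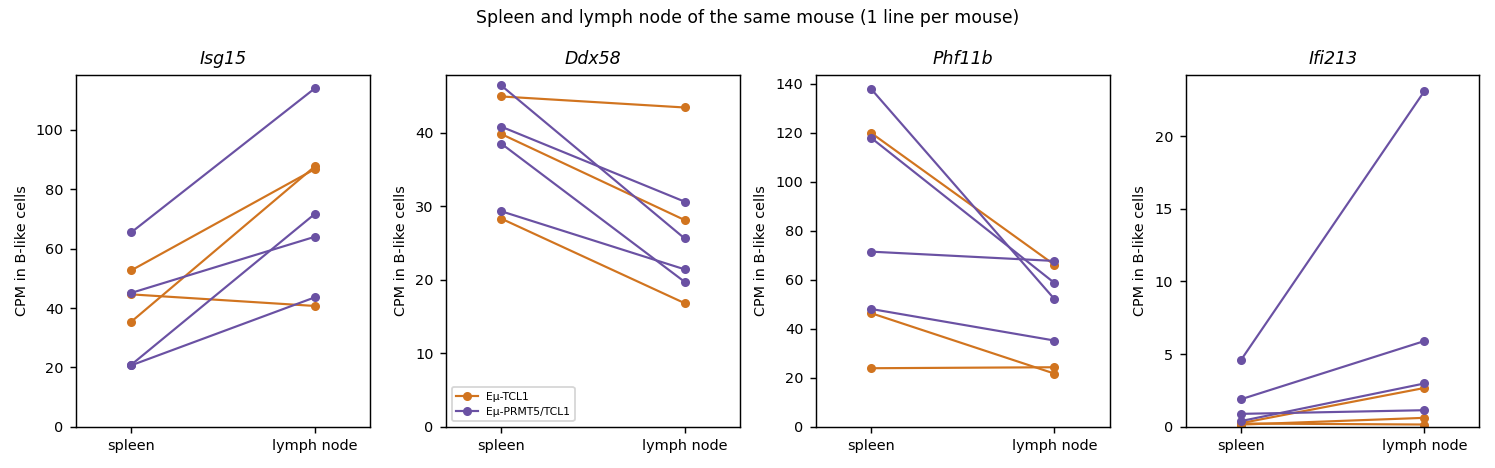
CPM of Isg15, Ddx58, Phf11b and Ifi213 in the B-like cells of spleen and lymph node, with 1 line per mouse for 7 mice. Ddx58 is lower in the node along all 7 lines and Phf11b along 6, and Isg15 and Ifi213 are higher in it along 6.

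In T-like cells no gene of the list was called between spleen groups either. Between Eµ-PRMT5 and Eµ-TCL1 spleens 30 of 40 genes had lower fitted levels in Eµ-PRMT5 mice, with a median log2 difference of -0.37, against -0.013 over all genes, and edgeR called 0 (0.0184% of all 10886 genes) and DESeq2 0 (0.294%). At an unadjusted p under 0.05 there were 3 genes, against 6.54% of all genes: Gbp2 and Ddx58, lower, and Iigp1, higher. Gbp2 was at 71.5, 103, 108, 53.5 and 35 CPM in the T-like cells of Eµ-PRMT5 spleens, at 138, 69.1, 175 and 138 in Eµ-TCL1 spleens and at 60.2, 135, 136 and 93.6 in Eµ-PRMT5/TCL1 spleens. In the nodes Gbp2 was at 130, 115 and 56.2 CPM for Eµ-TCL1 and at 137, 42.7, 46.1 and 70 CPM for Eµ-PRMT5/TCL1 mice. Of the spleens, Eµ-TCL1 spleen 2 lay within the Eµ-PRMT5 range, and the log2 difference of Eµ-PRMT5 from Eµ-TCL1 was -0.85 ± 0.35 (edgeR adjusted p = 0.734). For Eµ-PRMT5/TCL1 against Eµ-TCL1 spleens there was 1 gene at an unadjusted p under 0.05, Parp14 (-0.65 ± 0.29, edgeR adjusted p = 0.756), against 6.32% of all genes, and 0 called by edgeR (0%) and DESeq2 (0.00919%). In Eµ-PRMT5/TCL1 against Eµ-PRMT5 spleens there was 1, Slfn5 (-1.62 ± 0.65, adjusted p = 1), against 4.87%, and 0 called by edgeR (0%) and DESeq2 (0.0643%). These few genes depend on single libraries: without Eµ-PRMT5 spleen 5, for example, there were 8 genes between Eµ-PRMT5 and Eµ-TCL1 spleens and without Eµ-PRMT5 spleen 1 or 4 there were 0, while without Eµ-TCL1 spleen 3 the median against Eµ-TCL1 spleens went from -0.37 to 0.09 for Eµ-PRMT5 and from -0.32 to 0.14 for Eµ-PRMT5/TCL1 spleens (0.04 for the latter with the Xist covariate). Shares of all genes in these fits are not given here.

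The T-like levels of the regulators and of Ifit3 varied between libraries of a group. Irf7 was at 113, 69, 87, 107 and 122 CPM in Eµ-PRMT5 spleens, at 106, 73.4, 152 and 57.9 in Eµ-TCL1 spleens and at 83.6, 46.6, 66.7 and 415 in Eµ-PRMT5/TCL1 spleens, so that Eµ-PRMT5/TCL1 spleen 4 stood far above all others. In nodes it was at 48.1, 38.7 and 48.4 CPM in Eµ-TCL1 and 43.9, 68.3, 69.4 and 49.5 in Eµ-PRMT5/TCL1 mice. Isg15 was at 180, 140, 85.3, 241 and 132 CPM in Eµ-PRMT5, 144, 130, 198 and 39.2 in Eµ-TCL1 and 137, 113, 155 and 73.7 in Eµ-PRMT5/TCL1 spleens, and at 32.4, 55.9 and 77.5 and at 36.1, 105, 128 and 75.6 in the 2 node groups. All spleen groups overlapped. Stat2 was at 14.7, 20.8, 15.7, 7.64 and 20.8 CPM, 19.7, 14.1, 21.3 and 18.4, and 13.5, 18.5, 14.6 and 19.4 in spleens, and at 19.9, 15.4 and 14.7 and 43.9, 11.7, 13.9 and 11.4 in nodes. Ifit3 was at 15.4, 41.3, 30.4, 0 and 19.6 CPM, 14.8, 51, 74.4 and 26.8, and 5.39, 26.7, 44.9 and 27.5 in spleens, and at 40.7, 32.2 and 36.6 and 10.3, 18.7, 46.9 and 12.1 in nodes. The 0 in Eµ-PRMT5 spleen 4 comes from 47 T-like cells, and Eµ-TCL1 spleen 3 had the highest level.

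That spleen, Eµ-TCL1 spleen 3, had the highest T-like level of any spleen for 23 of the 43 genes, and its summed T-like level was 2886 CPM against 1253 to 2299 in the other spleens. T-like cluster 10 held 72% of its T-like cells, 32.3% of those of Eµ-PRMT5/TCL1 spleen 3 and 0% to 11.7% of those of the other libraries. Pooled over libraries, the cells of cluster 10 had Ifit1 at 150 CPM against 31.1 in other T-like cells, Isg15 at 247 against 98.1 and Rtp4 at 77.5 against 24, with Cd4 at 0.213 against 37.9. Other T cell markers were not higher in the cluster: Cd8a was at 206 against 232 CPM, Cd8b1 at 469 against 471 and Cd3e at 388 against 637. The T cell receptor gene Trbv13-2 was first among the top genes of the cluster, and 48% of its cells came from Eµ-TCL1 spleen 3. Of the cells of the cluster, 1190 came from Eµ-TCL1 spleen 3, where their summed level was 3242 CPM against 2054 in its other T-like cells. Of 12 libraries with at least 30 cells of the cluster, its summed level was above that of their other T-like cells in 9, for example at 2460 against 1201 CPM in Eµ-TCL1 spleen 2 and 2624 against 1005 in Eµ-PRMT5/TCL1 lymph node 2. In the other 3 it was at 1701 against 1797 CPM in Eµ-PRMT5/TCL1 spleen 3, at 1556 against 1687 in Eµ-PRMT5 spleen 2 and at 1128 against 1176 in Eµ-PRMT5/TCL1 lymph node 4. These are values of a cluster and its library with no test.

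In the T-like cells of nodes, Eµ-PRMT5/TCL1 against Eµ-TCL1, edgeR called 0 of 40 genes (0% of all 10526) and DESeq2 1, Ifi27l2a (0.836%). At an unadjusted p under 0.05 there were 4, against 13.1% of all genes, all of them higher, against 4.7% (2 without Eµ-TCL1 node 2, 10 without Eµ-PRMT5/TCL1 node 1, where 2 were lower): Igtp (0.77 ± 0.18, edgeR adjusted p = 0.23), Ifi27l2a (1.87 ± 0.59, adjusted p = 0.281), Rtp4 and Iigp1. The fits without a node are given with no share of all genes. The groups did not overlap for 2 genes, Samd9l and Ddx58, both lower in Eµ-PRMT5/TCL1 nodes, against 6.48% of all genes. Between node and spleen of the same mouse edgeR called 0 of 40 (0.0184% of all 10874) and DESeq2 1, Phf11b (1.6%), with 6 at an unadjusted p under 0.05 against 12.5%. Leaving out 1 mouse at a time gave 0 to 3 higher and 1 to 5 lower genes by edgeR at an unadjusted p under 0.05, with no share of all genes given here. Phf11b was lower in the T-like cells of the node in 6 of 7 mice, with means of 21.6 ± 13.8 and 41.0 ± 29.6 CPM (log2 difference -0.73 ± 0.15, edgeR adjusted p = 0.181), a direction it also had in B-like cells. The direction was shared by all 7 mice for Dhx58 and Ifi35, lower in the node, against 3.85% of all genes. Ifi47 and Slfn5, in contrast, had higher T-like levels in the node (0.35 ± 0.14 and 0.98 ± 0.39, adjusted p = 0.365 and 0.367). Summed over the list the T-like node was lower in 7 of 7 mice, but by 1 CPM in the Eµ-TCL1 mouse of spleen 2 (1319 and 1318) and by 3 CPM in the Eµ-PRMT5/TCL1 mouse of spleen 4 (2299 and 2296).

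In the myeloid classes no gene was called in any spleen comparison by edgeR or DESeq2, with edgeR adjusted p of 1 throughout, while DESeq2 called at most 0.053% of all genes in monocyte/macrophage-like and 0.0118% in neutrophil-like cells. In monocyte/macrophage-like cells 40 genes were tested among 9436, of which edgeR called 0% in each comparison. Against Eµ-TCL1 spleens, Eµ-PRMT5/TCL1 spleens had higher fitted levels for 36 of 40 genes, with a median log2 difference of 0.38, against -0.011 over all genes, and 4 at an unadjusted p under 0.05 against 1.85% of all genes: Ifit3 (1.80 ± 0.71), Irf9 (0.52 ± 0.21), Ifih1 (0.95 ± 0.39) and Oas1a (1.25 ± 0.52), of which none was left without Eµ-TCL1 spleen 4. Against Eµ-PRMT5 spleens there were also 4 (4.1% of all genes), Rsad2, the gene of the antiviral enzyme viperin (2.17 ± 0.74), its neighbour Cmpk2, Ifit3 and Oas1a, and between Eµ-PRMT5 and Eµ-TCL1 spleens 1, Irf9 (3.78%). In neutrophil-like cells, with 35 genes tested among 8478, of which edgeR called 0%, the counts were 1 (3.26%), 0 (2.42%) and 3 (2.09%) for Eµ-PRMT5 against Eµ-TCL1, Eµ-PRMT5/TCL1 against Eµ-TCL1 and Eµ-PRMT5/TCL1 against Eµ-PRMT5, and in the last of these Ifi27l2a alone did not overlap between the groups, with Eµ-PRMT5/TCL1 higher, against 0.484% of all genes (log2 difference 1.65 ± 0.61).

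The myeloid comparisons with Eµ-PRMT5 mice depended on single libraries, Eµ-PRMT5 spleen 4 among them. The neutrophil-like cells of that spleen had a summed level of 2201 CPM, where Eµ-PRMT5 spleens 1 to 3 had 457 to 597, and its Gbp2 and Ifi47 in monocyte/macrophage-like cells are given above. Without it, 17 genes in monocyte/macrophage-like cells (median 1.05) and 15 in neutrophil-like cells (median 1.55) were higher in Eµ-PRMT5/TCL1 than in Eµ-PRMT5 spleens at an unadjusted p under 0.05. Against Eµ-TCL1 spleens 11 genes in monocyte/macrophage-like and 16 in neutrophil-like cells (median -1.32) were then lower in Eµ-PRMT5 spleens. The shares of all genes in the fits without that library are not given here, so these counts cannot be set against them. Eµ-TCL1 spleen 1 moved the same comparisons the other way: without it the median was 0.39 in monocyte/macrophage-like and 0.47 in neutrophil-like cells, where it was 0.07 and -0.28 with all libraries. Eµ-PRMT5 spleen 4 is the library whose B-like cells had the lowest level of B cell markers.

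Whether the B-like and T-like cells of a library vary together was read in the 24 genes with a mean of at least 5 CPM in both classes. The points share a library, its depth and its free RNA, so the correlations are descriptions. Over the 13 spleens the median Pearson r of the 24 genes was 0.44 (Spearman's rho 0.35), and 23 of 24 were above 0, but the median over all 8298 genes at that level was 0.54. An r above 0.5 was found for 8 of the 24 genes (33.3%) and 55.9% of all genes. Centring each group on its mean gave a median of 0.43, leaving out Eµ-TCL1 spleen 1 and Eµ-PRMT5/TCL1 spleen 2 gave 0.43, and subtracting free RNA gave 0.44. Phf11b (0.75), Ddx58 (0.74), Dtx3l (0.72), Ifi203 (0.69), Zbp1 (0.67) and Irf7 (0.65) had the highest r, and Igtp (-0.09), Ifi35 (0.07), Stat2 (0.11) and Ifi213 (0.14) the lowest. For Gbp2, r was 0.25. The summed level had an r of 0.42 and a rho of 0.52. Of the 43 genes, 16 had their highest spleen level in the same library in both classes: Eµ-TCL1 spleen 3 was highest for 12 genes in B-like and 23 in T-like cells, and Eµ-PRMT5/TCL1 spleen 4 for 11 and 9. The share of all genes with the same highest spleen is not given here, so the count does not show that the list moves together. It also includes genes under the floor of 5 CPM, such as Ifi44 with 4 B-like UMIs in all.

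**Figure D5:**
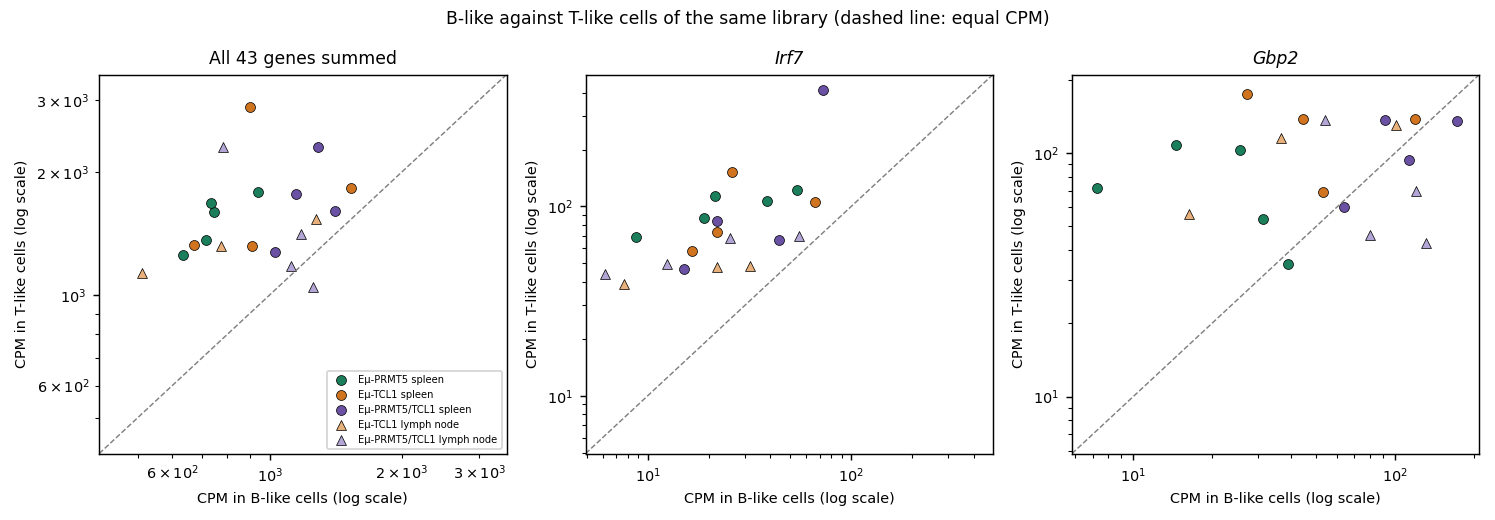
CPM in T-like against B-like cells of the same library for the summed list, Irf7 and Gbp2, on log axes, with circles for spleens, triangles for nodes, colours for groups and a dashed line at equal levels. The points lie on the T-like side of the line for Irf7 in 20 of 20 libraries, for the sum in 19 and for Gbp2 in 13, and the Irf7 levels of Eµ-PRMT5/TCL1 spleen 4 are the highest in both classes (72.3 and 415 CPM).

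In the 7 nodes the relation was weaker, with a median r of 0.19 (rho 0.16), 0.07 without Eµ-TCL1 lymph nodes 2 and 3, and 0.37 over all 8077 genes at that level. The summed level gave an r of -0.06 over the nodes, which turned to -0.81 without those 2 libraries, so no common direction is given for them. Irf7 kept an r of 0.79 in the nodes.

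The genes of the pathway around the list were read from further lists, of which none had a called gene in any comparison. In B-like cells all 5 tested receptor genes had higher fitted levels in Eµ-PRMT5 than in Eµ-TCL1 spleens, 3 of them at an unadjusted p under 0.05, where 9.61% of all genes were higher: Ifnar1 (log2 difference 0.95 ± 0.32, edgeR adjusted p = 0.167), Ifngr2 and Ifnlr1. Of 19 other induced genes, 17 had lower levels in Eµ-PRMT5 spleens, 3 of them at an unadjusted p under 0.05 (Isg20, Ifitm1 and Ifitm2), against 8.34% of all genes lower, and among 10 kinases and factors Tyk2 (-0.55) and Irf2 (-0.66) were lower at that level. The lists of sensing adaptors and of inhibitors each held a gene that was higher at that level, so the further lists did not share a direction. In Eµ-PRMT5/TCL1 against Eµ-PRMT5 spleens 5 of the 19 induced genes were higher at that level (Isg20, Ifitm2, Tap1, Gbp5 and Sp110), against 4.4% of all genes. In nodes against spleens Psmb8 and Tap1, which serve antigen processing, were lower at that level in both B-like and T-like cells, Eif2ak2 in B-like cells and Ly6e in T-like cells, where 12.1% and 12.5% of all genes differed at that level in either direction. Of the ligands, Ifng had 3731 UMIs in T-like cells, with some in 20 of 20 libraries, and 193 in B-like cells, while Ifnb1 had 1 UMI in B-like, 3 in T-like and 13 in monocyte/macrophage-like cells.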

How the data were processed

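Single-cell RNA-sequencing of 20 mouse libraries was done with 10x Genomics 3′ chemistry (v2). The authors deposited unfiltered matrices of raw UMI counts per gene and barcode, with gene and barcode lists; values were not normalized. The submitters' processing notes name Cell Ranger 2.0.1, Seurat 2.2.1 and GRCm38, while the matrix headers name Cell Ranger 3.1.0. Groups and mice were taken from the sample labels.

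Barcodes were called where UMIs reached the 99th percentile of the 3000 largest barcodes divided by 10 (thresholds 1745 to 4399), provided that they held 200 genes or more (88598 barcodes), and those with over 10% mitochondrial UMIs were left out. The top-scoring barcodes of Scrublet, at an expected 0.8% per 1000 cells, were removed as doublets (3542 barcodes), and 84231 cells were kept. Total UMIs per library were 9348094 to 72440894. Cells were clustered on 2000 variable genes without the 43 genes (30 components, 15 neighbours, Leiden resolution 1; scanpy 1.11.5) and named from marker lists (at least 3 markers in 20% of cells at 3 times the lower quartile). UMIs were summed per library and class where at least 30 cells were present, giving 285 to 5138 B-like, 47 to 4889 T-like, 38 to 929 monocyte/macrophage-like and 35 to 636 neutrophil-like cells per library.

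Sums were tested with edgeR 4.0.16 (filterByExpr, TMM, glmQLFit, glmQLFTest; R 4.3.3), all 3 spleen groups in 1 fit and the mouse as a block between tissues, with Benjamini-Hochberg adjustment over all genes at 0.05. The test was tried on simulated data first. Alternatives were DESeq2 1.42.0, no filter on low counts, RLE size factors, doublets kept, at least 100 cells, the listed genes allowed in clustering, immunoglobulin genes left out, free RNA subtracted (profile of barcodes with 10 to 100 UMIs), log2 CPM of Xist as a covariate, the replicate number as a block and leaving out each library. Spleens with the same number had correlated deviations in some pairs (r from -0.04 to 0.27, above 0.1 in 5 of 12; -0.27 to 0.2 for other numbers) and nodes in none (-0.08 to 0.06), so the numbers were not taken to pair mice across genotypes. The values of 1 gene of the further lists are not reported here. The members, gene lists and named genes were chosen with earlier results of these data known. Values in every library are given for the 3 genes with the highest median CPM in a class and for Isg15, Irf7, Stat2, Ifit3, Gbp2 and Ifi27l2a in B-like and T-like cells, and other genes given in full were chosen after their values were seen. Promoter windows came from RefSeq and gene positions from GENCODE vM21.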

Additional observations from a re-analysis of the deposited data

Results flagged for a closer look

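Of 97 groups of 4 or 5 libraries checked for a library far from the others, 11 held such a library by Dixon's criterion, where chance gives about 1 in 20. That rate holds for independent, normally distributed groups. The values here were CPM and shares on their own scale, and the checks shared genes and libraries. An excess over chance can thus not be read from the count. Of the 11 groups, 5 are in Eµ-PRMT5 spleen 4. Its neutrophil-like cells had a summed level of 2201 CPM (others of its group 457 to 597) and Rtp4 at 196 CPM (12.6 to 26.2). Its monocyte/macrophage-like cells had Gbp2 at 784 CPM (48.4 to 99) and Ifi47 at 243 CPM (53.2 to 63.1). Its B-like cells had Ifi35 at 36 CPM (73.2 to 77.1).

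Eµ-PRMT5/TCL1 spleen 4 stood apart in T-like cells, with Irf7 at 415 CPM (others of its group 46.6 to 83.6) and 36.7% of cells with at least 3 UMIs of the list after thinning (20% to 22.7%). In B-like cells Stat2 was at 12 CPM in Eµ-TCL1 spleen 1 (8.76 to 8.91) and at 16.7 in Eµ-PRMT5/TCL1 lymph node 2 (10.1 to 10.8), and in T-like cells it was at 43.9 in Eµ-PRMT5/TCL1 lymph node 1 (11.4 to 13.9), the last from 67 cells. Samd9l was at 128 CPM in the neutrophil-like cells of Eµ-PRMT5 spleen 2 (58.4 to 67.2), from 46 cells.

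Cells outside the 4 classes also held the list. NK-like cells, with at least 30 cells in 9 libraries, had a median summed level of 1347 CPM (1022 to 1725), and plasma-like cells in 9 libraries had 846 CPM (444 to 1151).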

How the results depend on the processing

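No gene of the list was called by edgeR in any of 16 comparisons. In B-like cells DESeq2 called 5 for Eµ-PRMT5 against Eµ-TCL1 spleens, 3 for Eµ-PRMT5/TCL1 against Eµ-PRMT5 spleens, 5 between node and spleen, and 1 in T-like cells between node groups and 1 between node and spleen, and in the other 11 comparisons it called 0. Without a filter on low counts edgeR called 1 (Ddx58, B-like, node against spleen). Leaving out each library gave 0 to 1 called genes between Eµ-PRMT5 and Eµ-TCL1 B-like cells (Ifi213, without Eµ-PRMT5 spleen 4 or 5) and 0 elsewhere. The replicate block called 0 in every genotype comparison, and the tissue comparison with no replicate block called 0. Of the median differences, 158 stayed within the spread of replicates and 0 did not under other settings, and 175 did and 3 did not when a library was left out. That spread (0.36 to 0.92 on the log2 scale) exceeds most of the medians, so a median could turn its sign within it. In B-like cells Eµ-PRMT5/TCL1 against Eµ-TCL1 did so in spleens (0.07 to -0.07) and nodes (0.35 to -0.05). In T-like spleens it was so for Eµ-PRMT5 (-0.37 to 0.09) and Eµ-PRMT5/TCL1 (-0.32 to 0.14) against Eµ-TCL1. It was also so for T-like Eµ-PRMT5/TCL1 against Eµ-PRMT5 spleens (0.06 to -0.04) and for T-like nodes (0.04 to -0.06). Monocyte/macrophage-like Eµ-PRMT5 against Eµ-TCL1 spleens went from 0.07 to -0.49. Against Eµ-TCL1, neutrophil-like Eµ-PRMT5 (-0.28 to 0.47) and Eµ-PRMT5/TCL1 spleens (0.13 to -0.29) turned too. No listed gene at an unadjusted p under 0.02 turned its sign. These genes were picked by their p in the main fit and refitted on nearly the same libraries. A turn of sign was thus unlikely from the start, and its absence does not show stability. The node median r went from 0.19 to 0.07 without the 2 farthest nodes. Without thinning, the share of cells with 3 UMIs was 82.4% in B-like and 84.5% in T-like cells, which depth sets. Of the 4 classes tested, the neutrophil-like class had the fewest cells (35 to 636 cells a library), where 3 of the 43 genes had under 30 UMIs. The cause of these shifts was not tested.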
